A study of Mus musculus with 5 samples.

Results

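The genes followed here encode 4 ligands of Notch receptors (Dll1, Dll4, Jag1 and Jag2) and the 3 fringe glycosyltransferases (Lfng, Mfng and Rfng) in cultured mouse macrophages. Each was taken by its symbol from a deposited table of read counts, at its RefSeq transcript row of highest mean count. All 7 were found, each with 1 row, among 20583 gene symbols, and all 7 passed the filter on low counts that left 13341 genes. The cells were bone marrow-derived macrophages, grown from bone marrow of mice on a C57BL/6 background, aged 7 to 8 weeks, with 25 ng/ml of the growth factor M-CSF for 7 days. Messenger RNA was compared between the wild type (n = 3 libraries, numbered 1 to 3) and the NICcA genotype (n = 2 libraries, numbered 2 and 3). What NICcA abbreviates is not in the labels, which name no promoter, Cre line or zygosity. Elsewhere, as background, NICcA denotes mice engineered to express the intracellular, signalling portion of a Notch receptor. Nothing in the labels says that the libraries of a genotype came from separate animals, so the spread behind each p-value is only that among libraries and could be technical.

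Notch ligands are membrane proteins that bind Notch receptors on a neighbouring cell. When the ligand is ubiquitinated and taken up by its own cell, the bound receptor is pulled open and cut, and its intracellular domain travels to the nucleus and joins the DNA-binding protein Rbpj. A ligand can also hold back receptors in the membrane of its own cell. Fringes work in the Golgi, where they extend O-linked fucose on the receptor's EGF repeats with N-acetylglucosamine, a sugar that favours activation by Delta-like ligands and, for Lfng and Mfng, weakens activation by Jagged ligands. In macrophages, Dll4 and Jag1 are known to be induced by inflammatory stimuli.

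Total counts ran from 57442309 to 76562905 per library. Wild type replicate 3 had the fewest transcript rows at a count of 0, at 3212, where NICcA replicate 3 had 4230 and the other 3 libraries between 6235 and 6651. NICcA replicate 2 stood apart from the other 4 libraries by its inflammatory and interferon-stimulated genes, whose values are given below. The macrophage markers were abundant in all 5 libraries, with summed levels of 14030 to 20550 CPM (counts scaled to library size, with edgeR's TMM factors) in wild type and of 12230 to 12760 CPM in NICcA. Lyz2, a lysozyme gene named after its values were seen, alone made up 76.1% to 85.7% of that sum. The cells are a bulk culture, so fewer cells of a type and less RNA per cell cannot be told apart.

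The first question is how much of each ligand and fringe these macrophages expressed. Levels of different genes were compared as the deposited RPKM, which scales reads to transcript length and library size. Lfng was by far the most abundant of the 7 transcripts, at 17.4 ± 5.49 RPKM in wild type (mean ± SD over the 3 wild type or the 2 NICcA libraries, as for every RPKM mean that follows) and 31.3 ± 0.930 RPKM in NICcA. Averaged over the wild type libraries, its RPKM stood at percentile 87.6 of all genes in the table. Rfng followed at 2.78 ± 0.0369 RPKM in wild type and 2.85 ± 0.105 RPKM in NICcA. Jag1, the leading ligand, was at 1.29 ± 0.456 RPKM in wild type and 2.07 ± 1.27 RPKM in NICcA. Mfng was close to Jag1, at 1.11 ± 0.638 and 1.97 ± 0.837 RPKM. The remaining ligands were scarce. Dll1 was at 0.128 ± 0.0244 and 0.283 ± 0.0692 RPKM, Jag2 at 0.0533 ± 0.0230 and 0.134 ± 0.0167 RPKM, and Dll4 at 0.0323 ± 0.0313 and 0.0614 ± 0.0383 RPKM.

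The means fell in the same order in both genotypes. Not every neighbour in that order was separated: the wild type ranges of Jag1 (0.812 to 1.72 RPKM) and Mfng (0.579 to 1.82 RPKM) overlapped, as did those of Jag2 (0.0392 to 0.0798 RPKM) and Dll4 (0.0123 to 0.0684 RPKM). In NICcA, Jag1 spanned 1.17 to 2.96 RPKM and so overlapped both Rfng (2.77 to 2.92 RPKM) and Mfng (1.37 to 2.56 RPKM). In both genotypes the ranges of Lfng and of Dll1 lay clear of those of their neighbours. The rest of the canonical ligand family added little, since Dll3, which is no activating ligand, stayed at or below 0.0382 RPKM in all 5 libraries and did not pass the filter (it was named after its values were seen).

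**Figure D1:**
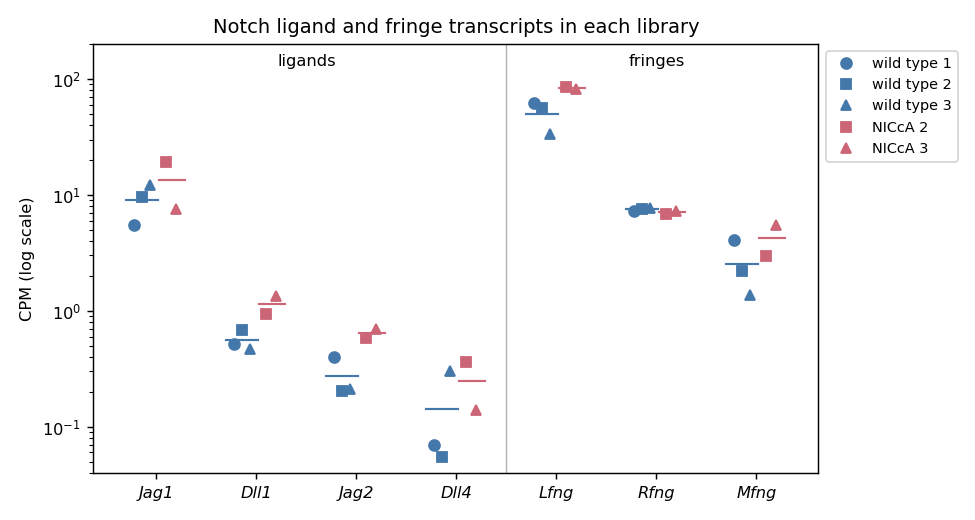
CPM of the 7 genes on a log scale, 1 point per library (blue, wild type; red, NICcA; circles, squares and triangles, replicates 1, 2 and 3), with horizontal lines at the group means. Both NICcA points lie above all wild type points for Dll1, Jag2 and Lfng, while Jag1, Dll4 and Mfng overlap and Rfng spans only 6.90 to 7.66 CPM.

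The comparison of genotypes asks whether macrophages with the NICcA genotype carried other amounts of these transcripts. Of the 7 genes, 0 passed edgeR's quasi-likelihood test after Benjamini-Hochberg adjustment over all 18267 transcript rows tested, against 0.0300% of all genes tested (4 of 13341, all 4 higher in NICcA). DESeq2, which called 3.95% of all genes (2.05% higher, 1.90% lower), also called 0 of the 7. At an unadjusted p below 0.05, edgeR had 3 of the 7 higher in NICcA and 0 lower, where 14.5% of all genes passed, 7.68% higher and 6.83% lower. That count of 3 was 1 without wild type replicate 2 or 3 or without either NICcA library, 4 without wild type replicate 1 and 2 with the replicate block. With a filter of at least 1 CPM in at least 2 libraries it was 1 of 4 members tested. Either limma fit on RPKM also gave 1 of 4, and none of these settings tested Dll1, Dll4 or Jag2. Both NICcA libraries lay above every wild type library in CPM for 3 of the 7 genes, against 18.3% of all genes, and below for 1, against 18.5% (36.8% in either direction). The log2 fold change (NICcA minus wild type) was positive for 6 of the 7, against 50.5% of all genes, with a median of 0.74 over the 7 and 0.00 over all genes. The members were chosen with results of these data known, and the shares are a description.

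Jag1 is a ligand with a long array of EGF repeats and a cysteine-rich domain that the Delta-like ligands lack. Its level was 5.50, 9.53 and 12.1 CPM in the wild type libraries (replicates 1, 2 and 3, the order kept below) and 19.1 and 7.54 CPM in the NICcA libraries (replicates 2 and 3). The groups overlapped: NICcA replicate 2 was the highest library, and NICcA replicate 3 was below 2 of the 3 wild type libraries. NICcA minus wild type gave 0.56 on the log2 scale (SE 0.46, edgeR adjusted p = 0.58). Without NICcA replicate 2 it was -0.27 (SE 0.45, adjusted p = 0.94), so the direction rested on that library, and over the alternatives the adjusted p ran from 0.38 to 0.94.

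Jag2, the close relative of Jag1, was read from few counts: 23, 15 and 14 in wild type and 39 and 50 in NICcA. In CPM these were 0.399, 0.205 and 0.213 against 0.583 and 0.693, so both NICcA libraries were higher than every wild type library. Counting error alone was wide, with exact 95% Poisson intervals of 14.6 to 34.5 for the highest wild type count and 27.7 to 53.3 for the lower NICcA count, which overlap. Intervals of this kind cover counting error only. The log2 fold change of 1.24 (SE 0.44, edgeR adjusted p = 0.33) was the largest of the 7 and did not pass. It ran from 1.06 to 1.61 when each library was left out in turn. The GENCODE annotation of GRCm38 also lists a microRNA gene, Mir6941, that overlaps Jag2 on the same strand.

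Dll1, a Delta-like ligand known from T cell and marginal zone B cell development, stood at 0.521, 0.682 and 0.470 CPM in the wild type libraries, against 0.942 and 1.33 CPM in NICcA. Counts were 30, 50 and 31 against 63 and 96. Both NICcA libraries were higher than every wild type library. The fold was 2.03 (log2 fold change 1.02, SE 0.33, edgeR adjusted p = 0.31), and the value did not pass. It was positive with every library left out, between 0.75 and 1.25. The GENCODE annotation of the GRCm38 build lists a noncoding gene, A930024N18Rik, that overlaps Dll1 on the opposite strand, and the strand setting of the counting is not given in the sources used here, so reads of the pair cannot be told apart.

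Dll4, the Delta-like ligand of sprouting blood vessels and of the thymic stroma, was near the limit of detection. Its counts were 4, 4 and 20 in wild type and 24 and 10 in NICcA, or 0.0694, 0.0546 and 0.304 CPM against 0.359 and 0.139 CPM. The groups overlapped, since wild type replicate 3 was second only to NICcA replicate 2. Within wild type the spread exceeded counting error: the exact 95% Poisson interval was 1.09 to 10.2 for a count of 4 and 12.2 to 30.9 for the count of 20. NICcA minus wild type gave 0.79 on the log2 scale (SE 0.88, edgeR adjusted p = 0.68) and this was -0.040 (SE 1.33, adjusted p = 1.0) without NICcA replicate 2. Over the alternatives its adjusted p ran from 0.58 to 1.0. An annotated transcript that overlaps Dll4 on the opposite strand, Gm14207, had a row in the second deposited table and was highest in the same pair of libraries. Its RPKM was 0, 0 and 0.0482 in wild type and 0.0520 and 0.0121 in NICcA, and reads of this pair cannot be told apart either. Wild type replicate 3 was also the library with the fewest rows at 0, and the part of that in the Dll4 value was not tested.

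As a group, the ligands summed to 1.03, 1.55 and 1.93 RPKM in wild type and to 3.41 and 1.69 RPKM in NICcA. Jag1 made up most of that sum in every library, between 78.7% and 88.8% in wild type, and 86.9% and 69.6% in NICcA replicates 2 and 3. The low share in NICcA replicate 3 came with the highest Dll1 and Jag2 values of the series, with Dll1 at 19.7% and Jag2 at 8.67% of the ligand sum. NICcA replicate 2 thus carried the most Jag1 and NICcA replicate 3 the most Dll1 and Jag2.

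**Figure D2:**
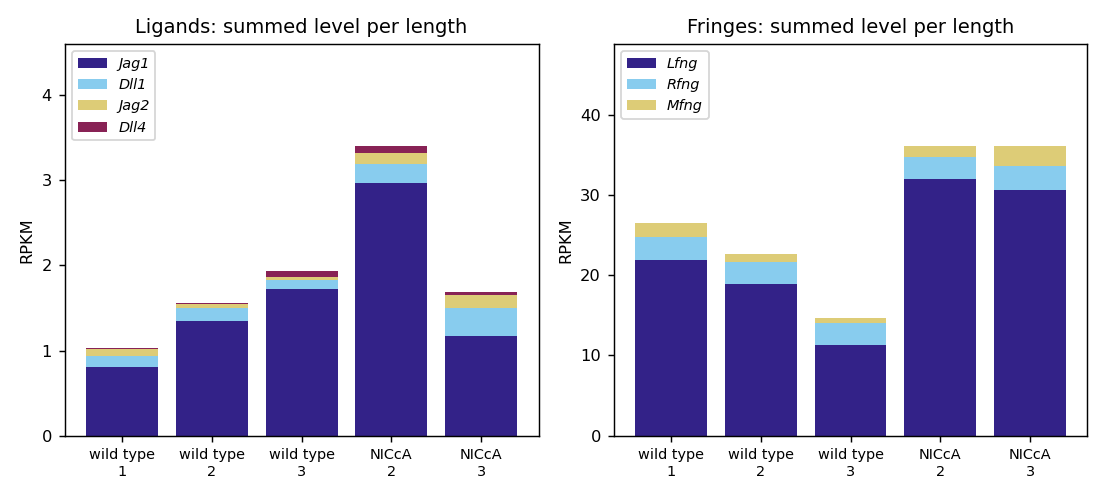
Stacked RPKM, starting at 0, of the 4 ligands (left) and the 3 fringes (right) in each of the 5 libraries. Jag1 dominates the ligands and Lfng the fringes, and the fringe sums of 36.1 and 36.2 RPKM in NICcA lie above the 14.7 to 26.5 RPKM of wild type.

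Lfng, lunatic fringe, is a target of Notch signalling in the segmenting embryo and acts on Notch receptors of developing T cells. Its level was 61.7, 55.8 and 33.2 CPM in the wild type libraries, against 85.9 and 82.0 CPM in NICcA, from counts of 2185 to 5916, so counting error was small. Both NICcA libraries were higher than every wild type library, and they lay closer together than the wild type libraries, whose RPKM spanned 1.94-fold. The fold was 1.67 (log2 fold change 0.74, SE 0.26, edgeR adjusted p = 0.32; DESeq2 adjusted p = 0.12), and the value did not pass. The lowest library was wild type replicate 3. Its removal gave 0.52 on the log2 scale (SE 0.12, adjusted p = 0.32), and over all 17 alternatives the log2 fold change was positive, at 0.52 to 0.96. Over the alternatives that kept both NICcA libraries the adjusted p of Lfng ran from 0.12 to 0.40.

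The sequence around the Lfng start is shown because it was the only one among the members' promoters that held a motif of Rbpj, the DNA-binding partner of the Notch intracellular domain. Promoter entries of RefSeq (build GRCm38.p6, 250 bases before to 50 bases after a start) matched 6 of the 7 genes, with 7 entries, and Mfng had none. The letters searched were TGGGAA and the longer GTGGGAA that contains it, and a form of the NF-kB motif was searched as well, each on both strands. The entries of Dll1 and Jag2, the other genes for which both NICcA libraries were the highest, are shown for comparison and hold none of the 3. Capitals mark the matches, and all lines run 5′ to 3′ on the gene's own strand.
Lfng, chr5:140607091-140607390, plus strand: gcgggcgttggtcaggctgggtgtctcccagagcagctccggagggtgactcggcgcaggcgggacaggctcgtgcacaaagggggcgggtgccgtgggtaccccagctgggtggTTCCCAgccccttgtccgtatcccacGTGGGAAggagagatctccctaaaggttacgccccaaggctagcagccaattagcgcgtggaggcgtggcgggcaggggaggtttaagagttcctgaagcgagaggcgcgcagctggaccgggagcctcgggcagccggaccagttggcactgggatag
Dll1, chr17:15375774-15376073, minus strand: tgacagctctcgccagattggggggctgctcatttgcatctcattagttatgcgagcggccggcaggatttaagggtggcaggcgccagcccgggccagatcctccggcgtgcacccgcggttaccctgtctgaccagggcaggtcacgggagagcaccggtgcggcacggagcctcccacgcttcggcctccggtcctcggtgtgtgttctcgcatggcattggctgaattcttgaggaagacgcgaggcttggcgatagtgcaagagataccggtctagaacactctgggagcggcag
Dll1, upstream start, chr17:15376883-15377182, minus strand: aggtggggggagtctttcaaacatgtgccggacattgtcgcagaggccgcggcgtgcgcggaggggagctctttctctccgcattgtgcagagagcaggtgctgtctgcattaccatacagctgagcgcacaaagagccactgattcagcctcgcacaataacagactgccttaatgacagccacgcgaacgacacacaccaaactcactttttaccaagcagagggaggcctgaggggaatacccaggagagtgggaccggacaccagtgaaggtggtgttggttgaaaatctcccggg
Jag2, chr12:112929446-112929745, minus strand: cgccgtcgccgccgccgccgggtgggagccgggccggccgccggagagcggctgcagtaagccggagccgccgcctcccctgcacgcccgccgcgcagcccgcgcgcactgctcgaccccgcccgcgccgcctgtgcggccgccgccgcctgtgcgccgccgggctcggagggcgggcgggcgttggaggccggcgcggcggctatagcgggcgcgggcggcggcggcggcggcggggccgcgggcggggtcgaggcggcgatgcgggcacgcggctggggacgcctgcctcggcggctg
The Lfng window holds GTGGGAA beginning 109 bases upstream of the start and a further TGGGAA on the opposite strand, as TTCCCA, beginning 135 bases upstream. Of the 32851 promoters in the RefSeq table, 25.6% hold TGGGAA, 6.38% hold GTGGGAA and 1.63% hold the NF-kB form. A match is a description of letters, and no binding was measured. These coordinates are of GRCm38.p6, whereas the submitters' processing notes name mm8, so they were not used with the counts.

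Mfng, manic fringe, is expressed in several blood lineages. Its level was 4.11, 2.20 and 1.37 CPM in the wild type libraries, against 2.96 and 5.49 CPM in NICcA. The groups overlapped, with wild type replicate 1 above NICcA replicate 2. The log2 fold change of 0.73 (SE 0.50, edgeR adjusted p = 0.50) depended on single libraries. It was 1.25 (adjusted p = 0.20) without wild type replicate 1, 1.10 (adjusted p = 0.90) without NICcA replicate 2, 0.43 (adjusted p = 0.77) without wild type replicate 3 and 0.22 (adjusted p = 0.89) without NICcA replicate 3. Over all alternatives the adjusted p ran from 0.20 to 0.90.

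Rfng, radical fringe, was the steadiest member. Its level was 7.30, 7.48 and 7.66 CPM in the wild type libraries, against 6.90 and 7.24 CPM in NICcA. All 5 libraries lay within 1.06-fold of each other in RPKM. On the CPM scale both NICcA libraries were below every wild type library, by little (log2 fold change -0.08, SE 0.13, edgeR adjusted p = 0.78), and on the RPKM scale NICcA replicate 3 was the highest of the 5. Without TMM factors the log2 fold change of Rfng was 0.024, a setting that moved the median of all genes from 0.00 to 0.11, so the sign of so small a value depended on the scaling. The other 6 genes were positive under TMM, RLE, upper-quartile and no scaling.

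**Figure D3:**
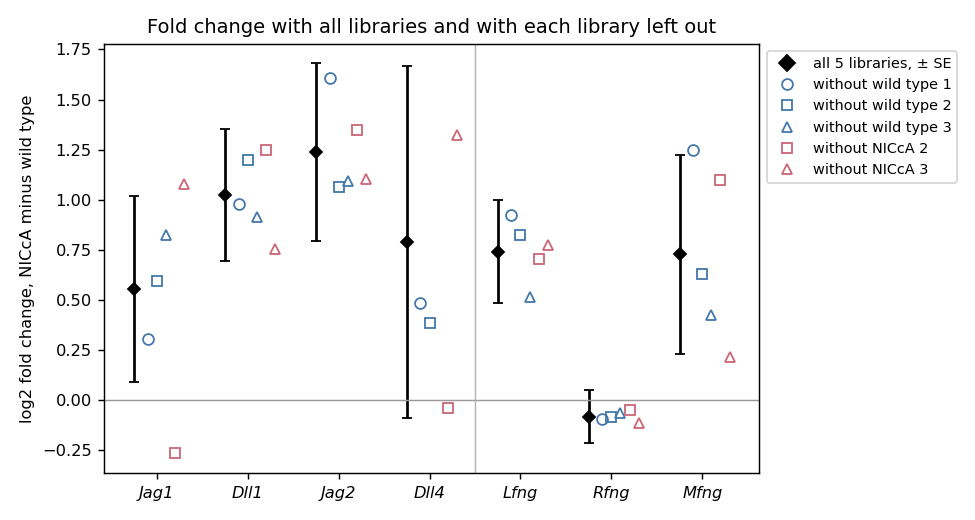
Log2 fold change of each gene with all 5 libraries (black diamonds, ± SE) and with each library left out in turn (open symbols; blue, a wild type library left out; red, a NICcA library left out). Dll1, Jag2, Lfng and Mfng stay above 0, Jag1 and Dll4 lie below 0, at -0.27 and -0.040, without NICcA replicate 2, and Dll4 has no value without wild type replicate 3, where it did not pass the filter.

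The fringes summed to 26.5, 22.6 and 14.7 RPKM in wild type and to 36.1 and 36.2 RPKM in NICcA. Lfng held 82.6%, 83.8% and 76.9% of this sum in wild type and 88.5% and 84.9% in NICcA. Within a library the ratio of Lfng to Rfng does not depend on how libraries are scaled. This ratio of RPKM, chosen after its values were seen, was 7.84, 6.91 and 4.01 in the wild type libraries, against 11.5 and 10.5. The ratio of Mfng to Rfng was 0.650, 0.339 and 0.206 against 0.496 and 0.876, which overlapped. Transcripts of fringes exceeded those of ligands per length in every library, by 7.59-fold to 25.7-fold in wild type and by 10.6-fold and 21.5-fold in NICcA. Among the wild type libraries, replicate 3 had the most Jag1 and the least Lfng and Mfng, and replicate 1 the reverse.

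Jag1 and Dll4 were highest in NICcA replicate 2, the library in which genes that respond to inflammatory stimuli were highest too. The median difference of 18 inflammatory response genes from their wild type mean was 4.18 on the log2 CPM scale in NICcA replicate 2 and 0.43 in the other NICcA library, and -0.30 to 0.30 among wild type libraries. For 18 interferon-stimulated genes it was 3.59 and -0.030 in NICcA replicates 2 and 3, with wild type between -0.31 and 0.20. On the same scale Jag1 was at 1.15 and -0.19 in NICcA replicates 2 and 3, and Dll4 at 1.47 and 0.26. But Dll4 was also at 1.24 in wild type replicate 3, where neither list was high. Jag1 was at 0.50 there, its highest wild type value, while both list medians were at their wild type lowest (-0.30 and -0.31). Lfng was at 0.82 and 0.76 in NICcA replicates 2 and 3, and Dll1 at 0.74 and 1.23. The inflammatory list lay above the wild type range in NICcA replicate 3 too, by its median. Of its 18 members, 9 were higher in both NICcA libraries than in every wild type library, against 18.3% of all genes. In the interferon list it was 2 of 18. The part of the inflammatory genes in the values of Jag1, Dll4, Lfng, Dll1 or any other member was not tested. In both lists all 18 members were positive, with medians of 2.75 and 2.72, and 0 passed edgeR's adjusted threshold. At an unadjusted p below 0.05, 11 and 14 were higher and 0 lower, and DESeq2 called 7 and 0. Of all genes, 50.5% were positive and 7.68% higher and 6.83% lower at unadjusted p. DESeq2 called 2.05% of all genes higher and 1.90% lower. By smallest p, the first list was headed by Il12a, an interleukin-12 subunit (log2 fold change 6.42, SE 0.70, edgeR adjusted p = 0.15), and Il1b, the interleukin-1 beta gene (4.24, SE 0.72, adjusted p = 0.27). Il1b was at 16.6, 14.3 and 14.8 CPM in the wild type libraries, against 501 and 76.4 CPM. Il12a passed with DESeq2 (adjusted p = 3.9e-10), without a filter on low counts (0.018), with edgeR's legacy = FALSE (0.048) and without NICcA replicate 3 (0.024), and Il1b with DESeq2 (0.00054) and without NICcA replicate 3 (0.0056). Without NICcA replicate 2 their log2 fold changes were 5.36 and 2.32 (adjusted p = 0.90 and 0.068), and without NICcA replicate 3 they were 7.02 and 5.04. The second list was headed, again by smallest p, by Phf11b (2.65, SE 0.77, adjusted p = 0.29) and Ifi44 (3.77, SE 1.12, adjusted p = 0.30). Without NICcA replicate 2 these were at 0.47 and 0.31, and without NICcA replicate 3 at 3.49 and 4.71 (adjusted p = 0.024 and 0.048). Phf11b, which has close copies, is uncertain for shared reads.

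**Figure D4:**
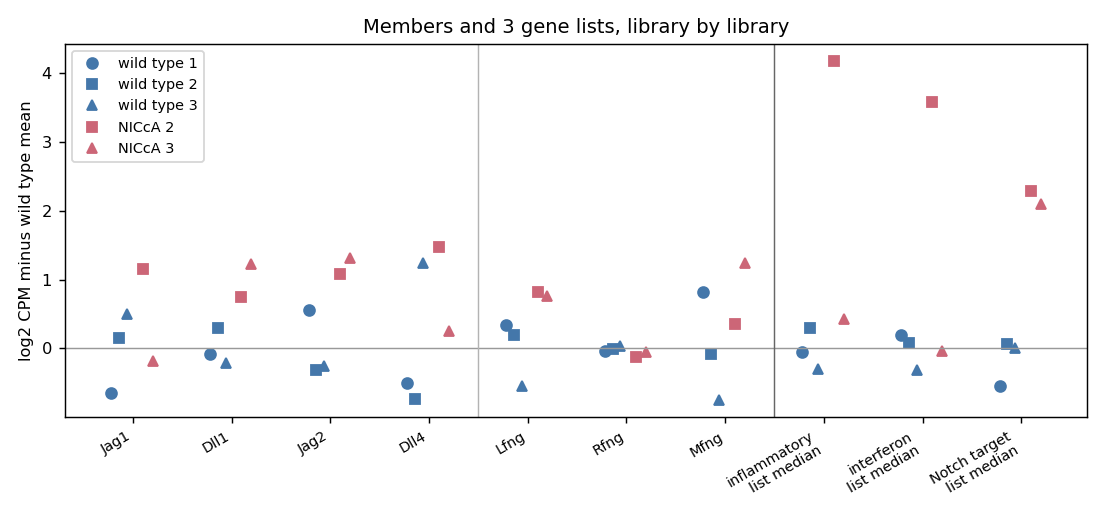
Log2 CPM minus the wild type mean for the 7 genes and, at the right, the median of that difference over the inflammatory, interferon-stimulated and canonical Notch target lists (blue, wild type; red, NICcA; 1 point per library). NICcA replicate 2 is far above the other 4 libraries in the first 2 lists, at 4.18 and 3.59, and both NICcA libraries are high in the Notch target list, at 2.29 and 2.10.

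Other cells of bone marrow cultures can carry ligands and fringes, so their markers were read in the same libraries. In every marker list 0 members passed edgeR's adjusted threshold, and the counts below are given with those at an unadjusted p below 0.05. Among all genes tested, 50.5% were positive and 7.68% higher and 6.83% lower at unadjusted p. DESeq2 called 2.05% of all genes higher and 1.90% lower. Endothelial markers had 7 of 10 members tested, 5 positive and 2 negative, with 1 higher and 2 lower at unadjusted p and 0 by DESeq2. They summed to 177 to 230 CPM in wild type and 174 to 178 CPM in NICcA, and Vwf, the clotting factor carrier, made up at least 62.1% of the sum in every library. Cdh5, an endothelial cadherin, had a lower mean in NICcA (by -1.21 on the log2 scale, SE 0.45, edgeR adjusted p = 0.33), as did Vwf (by -0.41, SE 0.16, adjusted p = 0.33), and these were the only negative members tested. Pecam1, an adhesion molecule that leukocytes also carry, was at 6.09, 1.97 and 1.81 CPM in the wild type libraries, against 9.77 and 8.00 CPM, with no overlap (1.44 on the log2 scale, SE 0.54, adjusted p = 0.33). Kdr, a VEGF receptor, differed by 0.61 (SE 0.37, adjusted p = 0.46). The median over the tested members was 0.44. Tek and Sox17 were at or below 0.139 and 0.0911 CPM, with Tek at 0 in wild type replicate 2 and Sox17 at 0 in wild type replicate 1 and NICcA replicate 2. Pecam1, Kdr, Tek and Sox17 were chosen after their values were seen. Stromal and osteoblast markers had 6 of 11 members tested, 3 positive and 3 negative, with 0 at unadjusted p and 0 by DESeq2. They summed to 27.4, 6.41 and 2.53 CPM in wild type and to 17.6 and 16.4 CPM in NICcA. Wild type replicate 1, the highest, had the lowest Jag1 of all libraries and, among wild type libraries, the highest Jag2, Lfng and Mfng. The part of stromal cells in these values was not tested. Most of the NICcA sum was Lepr, the leptin receptor (at least 81.4%; log2 fold change 1.72, SE 0.78, adjusted p = 0.36, and 2.67 without wild type replicate 1), while the collagen gene Col1a1 was at 2.01 CPM in wild type replicate 1 and at or below 0.228 CPM elsewhere (log2 fold change -2.98, SE 1.65, adjusted p = 0.42).

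Dendritic cell markers, of cells that use and present Delta-like ligands, summed to 739 to 936 CPM in wild type and to 1039 and 681 CPM in NICcA replicates 2 and 3. Their median difference from wild type was 1.07 and 0.85 on the log2 scale. Of 10 members, 8 were positive, with 3 higher and 0 lower at unadjusted p and 1 higher by DESeq2. For these and the lists that follow, the shares over all genes were 50.5% positive and 7.68% higher and 6.83% lower at unadjusted p. By DESeq2 the shares were 2.05% higher and 1.90% lower. Zbtb46, a dendritic cell transcription factor, stood at 5.33, 4.82 and 2.67 CPM in the wild type libraries, against 10.7 and 7.61 CPM (a difference on the log2 scale of 1.10, SE 0.32, adjusted p = 0.29). Siglech, of plasmacytoid dendritic cells, differed by 2.22 on the log2 scale (SE 0.67, adjusted p = 0.30) and by 1.36 without NICcA replicate 3, on counts of 10, 6 and 4 against 18 and 51. The 2 negative members, Clec9a and Itgax, were named after their values were seen. Clec9a was at 10.8, 24.9 and 31.4 CPM against 6.85 and 13.5 CPM (-1.14 on the log2 scale, SE 0.50, edgeR adjusted p = 0.36). Itgax, at least 77.5% of the dendritic sum in every library, differed by -0.19 (SE 0.21, edgeR adjusted p = 0.67). Neutrophil and progenitor markers summed to 66.1 to 109 CPM in wild type and to 120 and 138 CPM in NICcA, with 9 of 9 tested members positive (2 at unadjusted p, 1 by DESeq2), headed by smallest p by Ngp (0.83, SE 0.22, adjusted p = 0.28) and Prtn3 (1.14, SE 0.45, adjusted p = 0.34). T and natural killer cell markers stayed at sums of 2.48 to 3.05 CPM in wild type and 4.15 to 4.65 CPM in NICcA, with 6 of 6 tested members positive (1 at unadjusted p, 0 by DESeq2), headed by smallest p by Klrb1c and Cd8a (0.63, SE 0.26, and 1.31, SE 0.54, adjusted p = 0.34 and 0.35). B cell markers, of which 3 were tested (1 positive, 2 negative; 1 lower at unadjusted p, 0 by DESeq2), summed to 21.5 to 35.8 CPM and 12.0 to 19.3 CPM, of which Blnk, an adaptor that myeloid cells also make, was at least 93.5%. The log2 fold change was -0.88 for Blnk (SE 0.29, adjusted p = 0.32) and -0.36 for Cd79b, a B cell receptor chain (SE 0.52, adjusted p = 0.75). Both NICcA libraries, in which Lfng, Dll1 and Jag2 were highest, thus also had the higher dendritic, T cell and endothelial list medians. Endothelial medians were 0.47 and 0.18, against at most -0.039 in wild type. Neutrophil and T cell sums were higher in NICcA too. The other measure did not separate every list. Neutrophil medians overlapped, at 0.43 and 0.83 in NICcA replicates 2 and 3 against 0.45 in wild type replicate 3. Dendritic sums overlapped, and endothelial sums were 174 to 178 CPM in NICcA against 177 to 230 CPM in wild type. The part of these other cells in the member values was not tested. Of the macrophage list, 5 of 10 members were positive and 5 negative (median -0.02), with 1 higher and 3 lower at unadjusted p and 1 higher by DESeq2. Fcgr1, a high-affinity antibody receptor, differed by 0.92 on the log2 scale (SE 0.26, adjusted p = 0.29) and the macrophage glycoprotein gene Cd68 by -0.65 (SE 0.22, adjusted p = 0.32).

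The other genes of the pathway set the members in context, and in each of the lists below 0 members passed edgeR's adjusted threshold. The counts of these lists stand beside shares over all genes of 50.5% positive and 7.68% higher and 6.83% lower at unadjusted p. DESeq2 called 2.05% of all genes higher and 1.90% lower. Of the 4 receptor genes, 2 were positive and 2 negative (median log2 fold change 0.04), with 1 higher at unadjusted p and 0 by DESeq2. Their summed level was 19.8 to 23.9 RPKM in wild type and 26.4 RPKM in both NICcA libraries, so receptor transcripts outweighed ligand transcripts per length in all 5 libraries. Notch2 held at least 71.1% of the summed receptor CPM and differed by 0.10 on the log2 scale (SE 0.12, adjusted p = 0.70), and Notch1 by 0.27 (SE 0.11, adjusted p = 0.34). Reads of an engineered receptor portion, if these mice carry one, cannot be told apart from those of the receptor gene itself. Of 7 other and noncanonical ligands, only Dner passed the filter on low counts (log2 fold change 0.35, SE 0.88, edgeR adjusted p = 0.86). Its unadjusted p was not below 0.05. DESeq2 gave Dner no adjusted p, so it could not be called there.

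Ligands signal only when their own cell ubiquitinates them and takes them up. Of 12 genes for that step, 7 were positive and 5 negative (median 0.09), with 2 higher and 1 lower at unadjusted p, and DESeq2 called 1 higher and 1 lower. Neurl1a, a Neuralized ubiquitin ligase that acts on Delta and Jagged ligands, stood at 0.364, 0.519 and 0.273 CPM in the wild type libraries, against 1.48 and 1.39 CPM in NICcA. Both NICcA libraries were above every wild type library, and the value did not pass in edgeR (log2 fold change 1.89, SE 0.35, edgeR adjusted p = 0.27). With DESeq2 the adjusted p was 0.0047. Over the alternatives that kept both NICcA libraries the adjusted p of Neurl1a ran from 0.0047 to 0.40. Neurl2, a relative, was lower in both NICcA libraries, at 8.84 and 9.81 CPM against 12.0, 13.9 and 14.9 CPM (a difference on the log2 scale of -0.55, SE 0.15, edgeR adjusted p = 0.29; DESeq2 adjusted p = 0.048).

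Before a fringe can act, the EGF repeats must carry O-fucose. Of 5 tested genes of O-glycosylation, 2 were positive and 3 negative (median -0.09), with 0 at unadjusted p and 0 by DESeq2. Eogt, which adds N-acetylglucosamine directly to EGF repeats, differed by 0.52 on the log2 scale (SE 0.22, adjusted p = 0.36), and Xxylt1, which adds xylose, by 0.21 (SE 0.13, adjusted p = 0.45). Of 10 genes for the cutting of receptors and ligands, 3 were positive and 7 negative (median -0.23), with 3 lower at unadjusted p, and DESeq2 called 1 lower. That gene was Aph1c, a gamma-secretase subunit, at 73.3, 75.5 and 72.3 CPM against 41.2 and 51.6 CPM. The difference on the log2 scale was -0.67 (SE 0.13, edgeR adjusted p = 0.27), and with DESeq2 the adjusted p was 0.0011. Over the alternatives that kept both NICcA libraries the adjusted p of Aph1c ran from 0.0011 to 0.40. Aph1c is a near copy of Aph1b, so reads of the pair may be shared and its value is uncertain. Psen2, a catalytic subunit, differed by -0.55 on that scale (SE 0.19, adjusted p = 0.32).

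Of 9 genes of the nuclear complex, 4 were positive and 5 negative (median -0.05), with 2 higher at unadjusted p and 1 by DESeq2. Rbpj itself stood at 108, 64.6 and 64.6 CPM in the wild type libraries, against 165 and 110 CPM in NICcA (a difference on the log2 scale of 0.80, SE 0.29, adjusted p = 0.33), and the coactivator gene Maml3 differed by 0.69 on the log2 scale (SE 0.19, edgeR adjusted p = 0.29; DESeq2 adjusted p = 0.047). Of 12 canonical Notch targets, 7 were tested, of which 6 were positive (median 2.0) and 4 higher at unadjusted p, and DESeq2 called 3 higher. Hes1, the repressor most directly read as Notch output, stood at 0.0174, 0.0682 and 0.0911 CPM in the wild type libraries, against 2.77 and 1.73 CPM in NICcA (a difference on the log2 scale of 5.18, SE 0.54, edgeR adjusted p = 0.13; DESeq2 adjusted p = 1.1e-11). It also passed in edgeR without a filter on low counts (adjusted p = 0.018) and with legacy = FALSE (0.048). Hes1 did not pass in the other 14 of 17 alternatives. Among these were the replicate block in edgeR (adjusted p = 0.095), limma-voom (0.23) and edgeR without wild type replicate 2 (0.40). The log2 fold change of Hes1 was 4.81 without NICcA replicate 2 and 5.48 without NICcA replicate 3. Myc, a growth regulator, differed by 0.60 on the log2 scale (SE 0.13, edgeR adjusted p = 0.27; DESeq2 adjusted p = 0.0074). Hey1 and Il2ra were named after their values were seen. Hey1, the negative target, was at 0.798, 1.61 and 3.11 CPM against 0.823 and 0.887 CPM (-1.11 on the log2 scale, SE 0.57, edgeR adjusted p = 0.40). The target median was the value of Il2ra, at 18.8, 5.86 and 1.56 CPM in wild type against 44.1 and 25.7 CPM. The largest value among the ligands and fringes was 1.24, for Jag2, and its difference from Hes1 was not tested.

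**Figure D5:**
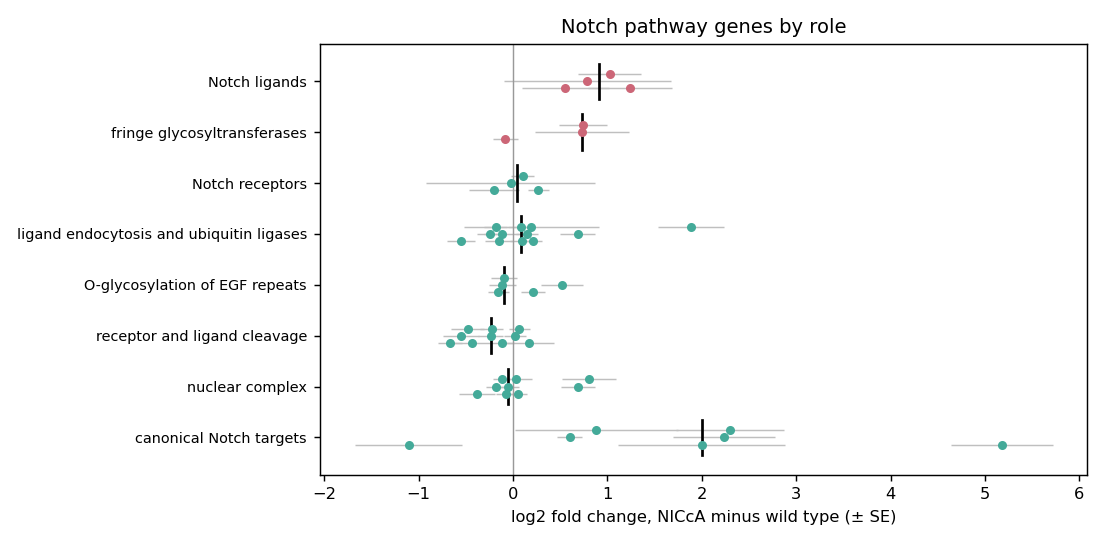
Log2 fold change (NICcA minus wild type, ± SE) of tested Notch pathway genes by role, with black bars at list medians (red, ligands and fringes; green, other roles). Ligand and fringe medians are 0.91 and 0.73, receptor, glycosylation, cleavage and nuclear medians lie between -0.23 and 0.04, and the target median is 2.0.

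For each member the gene of most similar profile was sought among 11258 genes at a mean of at least 1 CPM, as the smallest root mean square difference of centred log2 CPM over the 5 libraries. The nearest to Lfng was Uck2, a uridine-cytidine kinase, with a difference of 0.0467, at 40.8, 39.9 and 22.4 CPM in wild type and 60.6 and 58.6 CPM in NICcA. The nearest to Jag2 was Alox5, the 5-lipoxygenase that starts leukotriene synthesis (0.0955), and the nearest to Dll1 was Rasgrf2, a Ras exchange factor (0.117). Mfng lay nearest to Hmgb2, a chromatin protein (0.183), at 50.4, 29.9 and 18.6 CPM in wild type and 47.4 and 59.5 CPM in NICcA. Jag1 lay nearest to Ankrd66 (0.168), whose log2 fold change without NICcA replicate 2 was 0.059, Dll4 to F2r, the thrombin receptor (0.376), and Rfng to Ppm1b, a protein phosphatase (0.0104). The values describe likeness over 5 libraries and nothing of shared function.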

How the data were processed

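The authors deposited read counts per RefSeq transcript row, per the file headers, beside RPKM values that scale those counts to transcript length and library size. A second deposited table holds RPKM alone, and the members' RPKM were identical in both. Bowtie 0.12.2 and mm8 are named in the submitters' processing notes, with no role, and neither a counting tool nor its strand setting is given in the sources used here.

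Counts of all 27457 rows entered edgeR 4.0.16 (R 4.3.3; TMM, filterByExpr, glmQLFit, glmQLFTest, genotype as the only term), with Benjamini-Hochberg adjustment over 18267 rows and a threshold of 0.05. Gene symbols that the deposited table holds as dates were restored by accession for 46 of 47. Each gene is its row of highest mean count. SE is the absolute log2 fold change over the square root of F. Log2 CPM used a prior count of 2. The fits were also run on counts simulated with edgeR's own dispersions. There all libraries of a genotype were drawn alike, so that run does not test how a library that stands apart is treated. Alternatives were other scalings, filters, DESeq2 1.42.0, limma-voom (limma 3.58.1), limma on log2(RPKM + 1) or log2(RPKM + 0.1), a replicate block and leaving out single libraries (with 1 NICcA library left, it is assumed to vary like the wild type).

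The members and gene lists were chosen with earlier results of these data known. Named genes are the 7 members, the 2 genes with the smallest p of each other list (up to 4 where some passed, which none did) and each member's nearest profile. Others were named after their values were seen. Libraries were grouped by the titles in the labels, and depth is given with the results. Promoter letters were read from the RefSeq table in Python 3.11.15.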

Additional observations from a re-analysis of the deposited data

How the results depend on the processing

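The number of ligand and fringe genes past the threshold was 0 under all 17 alternatives. The number over all genes was 4 with edgeR, 11 without a filter on low counts, 527 with DESeq2, 2 with limma-voom, 8 with edgeR's legacy = FALSE, 2 with limma on log2(RPKM + 1) or log2(RPKM + 0.1) and 0 with the replicate block, and it ran from 0 to 44 with each library left out (0 without wild type replicate 2 or NICcA replicate 2, 44 without NICcA replicate 3). Dll1 and Jag2 kept a positive log2 fold change in 14 of 14 alternatives that tested them, and Lfng and Mfng in 17 of 17. With each library left out, Jag1 ran from -0.27 to 1.08, Dll4 from -0.040 to 1.32, Dner from -0.42 to 0.82 and Cd79b from -0.63 to 0.010. Without scaling factors Rfng was at 0.024 and Ppm1b at 0.016. With limma on log2(RPKM + 1) they were at 0.023 and 0.020, and with limma on log2(RPKM + 0.1) at 0.030 and 0.022. These 3 settings moved the median of all genes from 0.00 to 0.11, 0.09 and 0.11, about as far as Rfng and Ppm1b moved. The cause of the reversals of Jag1, Dll4, Dner and Cd79b was not tested. Both genotypes hold replicates 2 and 3, which share only a number: with the replicate block Lfng was at 0.96 (adjusted p = 0.13) and Jag2 at 1.60 (adjusted p = 0.18), and deviations from the group means correlated at 0.21 for the pair numbered 2 and 0.17 for the pair numbered 3. With 2 NICcA libraries the unmatched pairs take the opposite signs by construction (-0.21 and -0.17), so these values do not show pairing. Under the CPM filter Dll1, Dll4 and Jag2 were not tested, and limma on RPKM left out the same 3 genes. Dll4 had no value without wild type replicate 3. Depth limits Dll1, Jag2 and Dll4, with counts of 96 or fewer.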
